A study of Mus musculus with 12 samples.

Results

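Solute carriers are membrane proteins that move small molecules such as amino acids, ions, nucleotides and metabolites across the cell surface or the membranes of organelles. The 8 genes described here, Slc6a8, Slc7a3, Slc9a7, Slc10a3, Slc25a5, Slc25a14, Slc38a5 and Slc25a43, were taken by name from a deposited table of 952 genes of the mouse X chromosome, of which 768 had a value in at least 1 library and 698 in all 8. All 8 solute carrier genes had values, and 7 of them had values in every library. Slc25a5 had none in either EpiSC library without SmcHD1. The table holds 14 rows with a solute carrier symbol, and the other 6 are summarised after the 8.

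The values are log2 enrichments from chromatin immunoprecipitation and sequencing (ChIP-seq) of 2 histone marks, H3K9me3 and H3K27me3, in female mouse cells. EpiSCs (epiblast stem cells, which resemble the epiblast of the early embryo) were of stage E6.5, and MEFs (mouse embryonic fibroblasts) of stage E13.5. Wild-type cells (WT) had the genotype Smchd1+/+ Xist deltaA/+ and deficient cells (MD1) had Smchd1 MD1/MD1 Xist deltaA/+, both from a cross of C57BL6/J with an F1 of JF1 and C57BL6/J, so that WT cells carried the same Xist deltaA allele as the deficient ones. Each mark, cell type and genotype was measured in 1 library, which makes 8 ChIP libraries beside 4 inputs. No difference below has a replicate check or a test across samples. The sources used here state neither whether a culture came from 1 embryo or from several nor which X was counted. Smchd1 is not X-linked and these values measure no expression, so genotype and cell type rest on the labels.

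In female mammals 1 X chromosome is silenced, and the silent X carries repressive histone marks. H3K27me3 is laid down by Polycomb repressive complexes and H3K9me3 marks heterochromatin. SmcHD1 is a chromosomal protein that helps to keep the inactive X silent and compact. A solute carrier gene on the X is therefore a place where the marks of silencing can be read at a gene with a known transport function, although these data hold no measure of its expression.

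A positive value means more ChIP signal than input and a negative value less, after scaling by a constant for each library that is not given. Differences between libraries include the ratio of 2 such constants. The rank of a gene among all genes of the same library does not depend on the constant and is given as a percentile. Intervals in brackets after a change are 95% counting intervals built from the smallest whole numbers that give the deposited ratios, called pairs here, and they cover counting error only. Where the real counts are multiples of a pair the interval is too wide. The pairs of the 8 genes differed widely, from 5 input counts at Slc25a5 in WT MEFs to 1449 at Slc9a7 in the same cells.

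**Figure D1:**
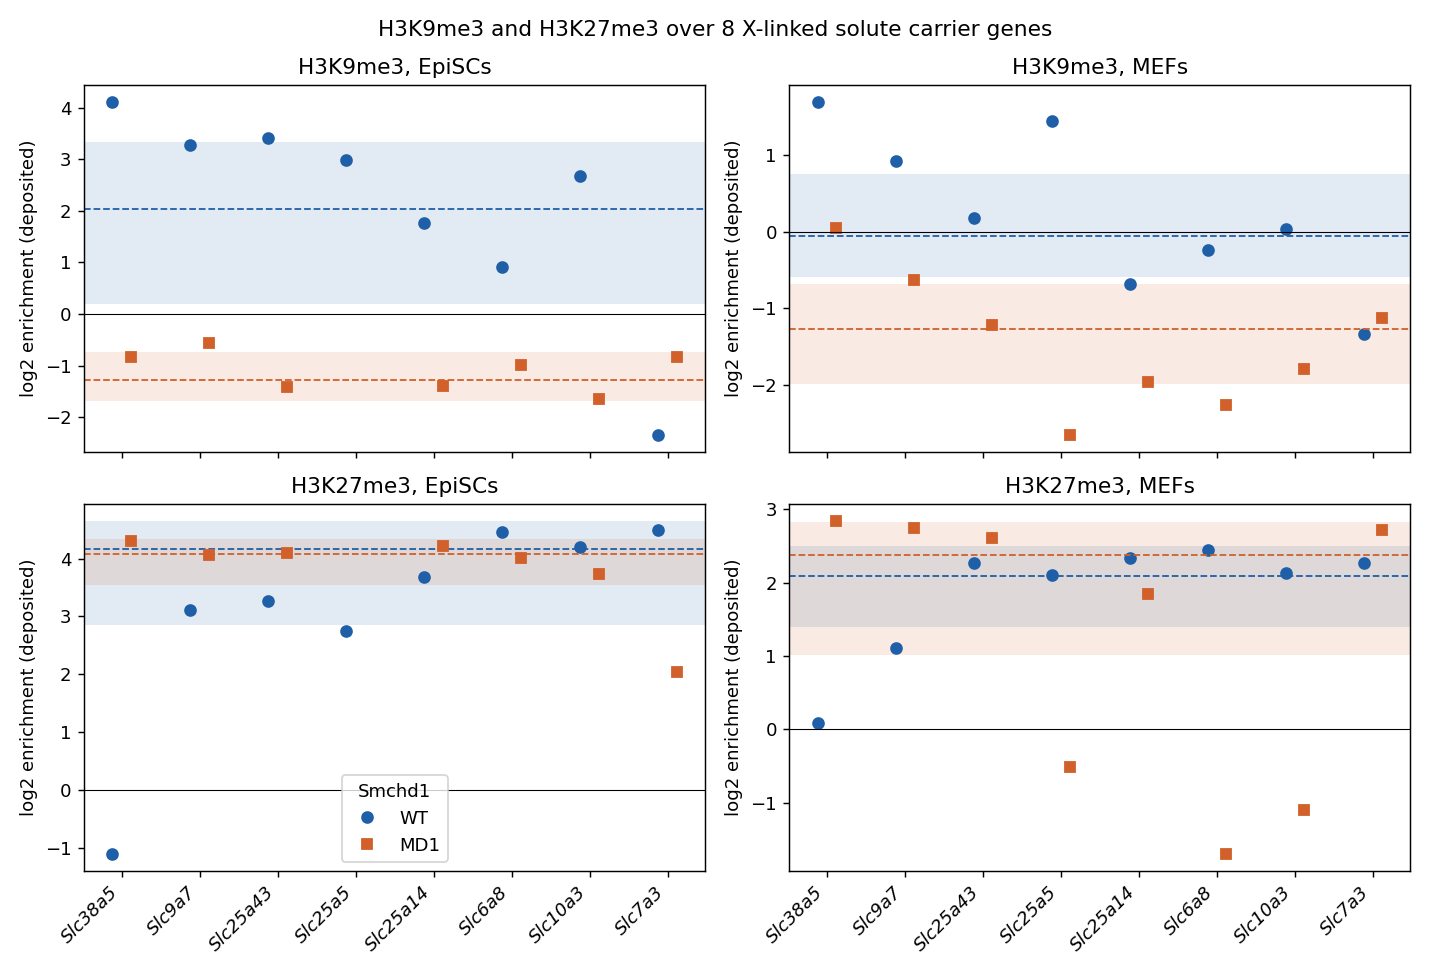
Deposited log2 enrichment (vertical axis) of the 8 solute carrier genes, in their order along the X, for each mark and cell type, with circles for WT and squares for MD1. Dashed lines and shaded bands give the median and the range from the lower to the upper quartile of all genes in the same library. In EpiSCs the MD1 squares for H3K9me3 lie between −1.63 and −0.55, and all WT circles but that of Slc7a3 lie above them.

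H3K9me3 in WT EpiSCs was high at most of the 8 genes and low at Slc7a3. The values were 4.11 at Slc38a5, 3.41 at Slc25a43, 3.28 at Slc9a7, 2.98 at Slc25a5, 2.67 at Slc10a3, 1.76 at Slc25a14, 0.92 at Slc6a8 and −2.34 at Slc7a3. At least 2-fold enrichment over input, called rich here, was reached by 6 of 8, where 64.0% of the 719 genes with a value reached it. The lowest member inside the threshold was Slc25a14 and the highest outside it was Slc6a8. The rich members lay inside long runs of consecutive rich genes. Slc9a7, Slc25a43, Slc25a5 and Slc25a14 shared 1 run of 97 genes from Chst7 to Igsf1, Slc38a5 lay in a run of 72 from Mycs to Gm14635, and Slc10a3 in a run of 46 from Opn1mw to Tsga8. Genes that share a run are not independent examples of it.

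In MD1 EpiSCs H3K9me3 was under input at all 7 members with a value, from −1.63 at Slc10a3 to −0.55 at Slc9a7. Most genes of that library were under input too, with a median of −1.27 and an upper quartile of −0.74, beside a median of −0.99 over the 7. H3K9me3 was at least 2-fold lower than in WT at 6 of 7 members, where 82.9% of 708 genes were, and the median change of the 7 was −3.83, beside −2.98 over all genes. The exception, Slc7a3, was the member with the least H3K9me3 in WT. It was 1 of 7 members at least 2-fold higher, where 1.13% of all genes were, with a counting interval that included 0 as deposited. After centring of each library on its genes outside the rich set, which moved every one of these changes by 1.19, 5 of 7 members were lower, where 63.8% of all genes were, and Slc6a8 was no longer called. Slc7a3 was still 1 of 7 higher, where 5.37% were. The median of the 7 was then −2.64, beside −1.80 over all genes.

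H3K27me3 in EpiSCs moved in both directions among the 8. It was at least 2-fold higher in MD1 at 1 of 7 members, Slc38a5, where 22.7% of 708 genes were, and at least 2-fold lower at 1 of 7, Slc7a3, where 11.3% were. The other 5 changed by less than 2-fold as deposited, from −0.46 at Slc10a3 to 0.96 at Slc9a7. After centring 3 of 7 were higher, where 31.6% of all genes were, with Slc9a7 at 1.42 and Slc25a43 at 1.30, and the small decreases at Slc6a8 and Slc10a3 turned to 0.022 and 0.0064. Slc7a3 was still 1 of 7 lower, at −1.99 (−2.71 to −1.27), where 46 of 708 genes were. The median of the 7 was 0.53 as deposited, beside −0.069 over all genes.

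In MEFs the H3K9me3 values of WT cells ran lower, from −1.34 at Slc7a3 to 1.69 at Slc38a5. Rich members were 2 of 8, Slc38a5 and Slc25a5, where 20.3% of 747 genes were rich. Slc9a7, at 0.92, lay just outside the threshold. In MD1 MEFs 7 of 8 members were at least 2-fold lower as deposited, where 51.3% of 739 genes were, and 0 of 8 were higher, where 0.677% were. The median change of the 8 was −1.60, beside −1.02 over all genes. After centring, which moved every one of these changes by 0.99, 2 of 8 were lower (Slc25a5 and Slc6a8), where 25.3% of all genes were, and 1 was higher (Slc7a3), where 7.44% were. The centred counting intervals of these called members all included 0: −6.48 to 0.27, −2.48 to 0.41 and −0.074 to 2.49 in the order named. Of the 8 members only Slc9a7, at −0.56 (−0.81 to −0.32), had a centred interval that excluded 0.

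H3K27me3 in MEFs also moved in both directions among the members. It was at least 2-fold lower in MD1 at 3 of 8 members, Slc6a8, Slc10a3 and Slc25a5, where 24.0% of 739 genes were lower. It was at least 2-fold higher at 2 of 8, Slc38a5 and Slc9a7, where 22.3% were higher. After centring the same 5 members were called, where 26.1% of all genes were lower and 16.0% higher. The levels of these members in both genotypes, which make up the change, are given with each gene below.

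**Figure D2:**
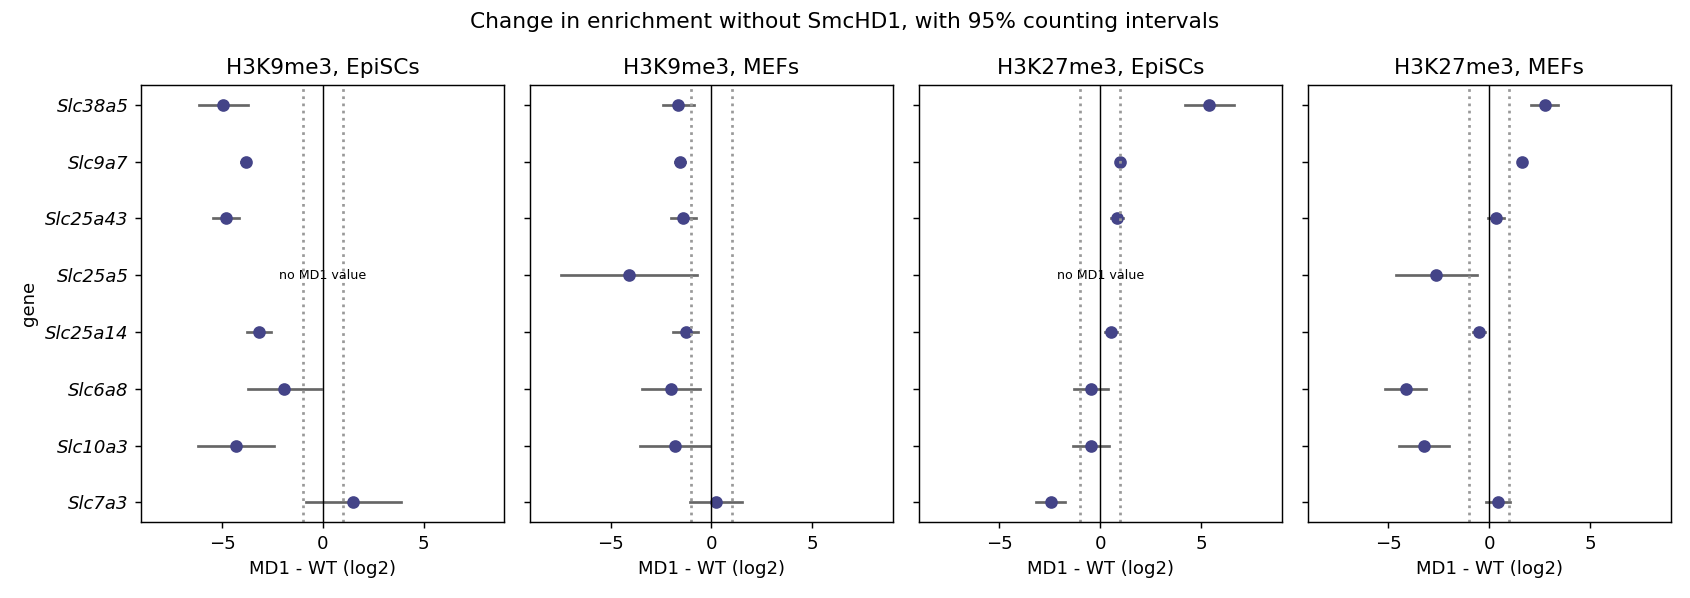
Change in log2 enrichment between MD1 and WT (horizontal axis) for each solute carrier gene (vertical axis) in the 4 comparisons, with lines for 95% counting intervals and dotted lines at the 2-fold threshold. In the MEF panel for H3K27me3 the points run from −4.14 at Slc6a8 to 2.76 at Slc38a5, while 7 of 8 H3K9me3 points in MEFs lie beyond the threshold on the lower side as deposited (2 of 8 after centring).

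Of the 2 amino acid carriers, Slc38a5 (X, 7848507 to 7857302 in mm9, plus strand) encodes a carrier of glutamine and other neutral amino acids. Its H3K9me3 values were 4.11 in WT EpiSCs, −0.82 in MD1 EpiSCs, 1.69 in WT MEFs and 0.048 in MD1 MEFs. Its H3K27me3 values, in the same order, were −1.11, 4.30, 0.083 and 2.85. As deposited, both cell types thus showed high H3K9me3 with low H3K27me3 in WT cells and the opposite shift of each mark in MD1 cells. In EpiSCs H3K9me3 was 30.6-fold lower, a change of −4.94 (−6.15 to −3.73) that rested on an MD1 ChIP pair of 8. H3K27me3 there was 42.6-fold higher, a change of 5.41 (4.22 to 6.61) that rested on a WT ChIP pair of 8. In MEFs the changes were −1.65 (−2.42 to −0.87) and 2.76 (2.10 to 3.43). The 2 marks of a cell share an input.

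By rank Slc38a5 was at the 96.8 percentile of H3K9me3 in WT EpiSCs and at the 6.12 percentile of H3K27me3. The H3K27me3 rank was 71.7 in MD1 EpiSCs, and in MEFs it was 7.36 in WT and 76.4 in MD1. Its H3K9me3 rank in MEFs was 91.6 in WT and 89.8 in MD1. Slc38a5 thus kept nearly the same place among MEF genes in H3K9me3, although its level was lower as deposited. Centring left a change of −0.66 (−1.43 to 0.11) there, with an interval that included 0.

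Slc7a3 (X, 98274549 to 98280744, minus strand) encodes a carrier of cationic amino acids such as arginine and lysine. Its H3K9me3 values were −2.34 in WT EpiSCs, −0.83 in MD1 EpiSCs, −1.34 in WT MEFs and −1.12 in MD1 MEFs, all under input. Its H3K27me3 values were 4.50, 2.04, 2.27 and 2.71 in the same order. Of the 8 members Slc7a3 had the least H3K9me3 and the most H3K27me3 in WT EpiSCs, the reverse of Slc38a5, although its H3K27me3 was close to the 4.45 of Slc6a8. H3K27me3 was 5.50-fold lower in MD1 EpiSCs, a change of −2.46 (−3.18 to −1.74), and its rank went from 66.5 to 7.07. The H3K9me3 change in EpiSCs was 1.51 (−0.84 to 3.87), on ChIP pairs of 2 in WT and 7 in MD1, and its interval included 0 as deposited. Centring moved it to 2.70 (0.35 to 5.06), so whether it lies beyond counting error depends on the scaling. In MEFs both changes were also within counting error, 0.22 (−1.06 to 1.497) for H3K9me3 and 0.45 (−0.15 to 1.05) for H3K27me3.

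Slc9a7, Slc6a8 and Slc10a3 each belong to a different family of carriers. Slc9a7 (X, 19682881 to 19868890, minus strand) encodes a sodium and proton exchanger of the Golgi network, and at 186010 bases it was the longest of the 8 and had the largest pairs. H3K9me3 was 3.28 in WT EpiSCs, −0.55 in MD1 EpiSCs, 0.92 in WT MEFs and −0.63 in MD1 MEFs. H3K27me3 was 3.11, 4.07, 1.11 and 2.74 in the same order. The pattern had the same directions as at Slc38a5, with smaller H3K27me3 changes. H3K9me3 changed by −3.83 (−4.04 to −3.61) in EpiSCs and by −1.55 (−1.79 to −1.31) in MEFs, and H3K27me3 by 0.96 (0.83 to 1.09) and 1.63 (1.48 to 1.78). The EpiSC value lay just under the 2-fold threshold and became 1.42 after centring.

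Slc6a8 (X, 70918472 to 70927839, plus strand) encodes the creatine transporter. H3K9me3 was 0.92 in WT EpiSCs, −0.99 in MD1 EpiSCs, −0.23 in WT MEFs and −2.26 in MD1 MEFs. H3K27me3 was 4.45, 4.01, 2.44 and −1.70. The H3K27me3 level in MD1 MEFs was the lowest of the 8 members, at the 8.89 percentile of that library, where WT MEFs had placed the gene at 71.6. H3K27me3 was 17.6-fold lower in MD1 MEFs, a change of −4.14 (−5.14 to −3.14), against a change in EpiSCs of −0.44 (−1.29 to 0.40). H3K9me3 changed by −1.90 (−3.72 to −0.084) in EpiSCs, on an MD1 ChIP pair of 4, which became −0.72 after centring and was then under 2-fold, and by −2.02 (−3.47 to −0.58) in MEFs.

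Slc10a3 (X, 71614558 to 71618688, minus strand) belongs by sequence to the family of sodium and bile acid cotransporters. H3K9me3 was 2.67 in WT EpiSCs, −1.63 in MD1 EpiSCs, 0.032 in WT MEFs and −1.79 in MD1 MEFs. H3K27me3 was 4.19, 3.73, 2.13 and −1.09. As at Slc6a8, H3K27me3 in MD1 was under input in MEFs and far above it in EpiSCs. The H3K27me3 changes were −3.22 (−4.44 to −1.9996) in MEFs and −0.46 (−1.34 to 0.43) in EpiSCs. H3K9me3 changed by −4.30 (−6.21 to −2.40) in EpiSCs, on an MD1 ChIP pair of 3, and by −1.82 (−3.57 to −0.070) in MEFs. The whole of Slc10a3, 4131 bases, lies inside a second row of the table, Slc10a3-ubl4, on the same strand, so reads of the former are also reads of the latter and the 2 rows are not separate measurements.

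The 3 remaining members encode mitochondrial carriers. Slc25a5 (X, 34335647 to 34338801, plus strand) encodes an ADP/ATP translocase, which exchanges adenine nucleotides across the inner mitochondrial membrane. H3K9me3 was 2.98 in WT EpiSCs, 1.44 in WT MEFs and −2.65 in MD1 MEFs, and H3K27me3 was 2.75, 2.11 and −0.51 in the same libraries. Both marks were lower in MD1 MEFs, H3K9me3 by a change of −4.09 (−7.47 to −0.72) on an MD1 ChIP pair of 1 and H3K27me3 by −2.62 (−4.62 to −0.62) on a pair of 6. Centring moved the H3K9me3 change to −3.11 (−6.48 to 0.27), so whether it lies beyond counting error depends on the scaling. At 3155 bases Slc25a5 was the shortest member, and its intervals were the widest of the 8 for both marks in MEFs. It was also the only rich gene at its place in WT MEFs, with no rich neighbour on either side. That WT level rested on an H3K9me3 ChIP pair of 7 over an input pair of 5, so its counting error is large. With input pairs of at least 20 it was left out.

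Slc25a43 (X, 34283627 to 34317302, plus strand), a member of the same carrier family, lies 18344 bases before Slc25a5 on the same strand. H3K9me3 was 3.41 in WT EpiSCs, −1.41 in MD1 EpiSCs, 0.17 in WT MEFs and −1.22 in MD1 MEFs. H3K27me3 was 3.26, 4.09, 2.27 and 2.61. H3K27me3 at this gene changed little in MEFs, by 0.34 (−0.049 to 0.72), which is the median of all genes, while at Slc25a5 it was 6.14-fold lower. The 2 counting intervals do not overlap, but the difference between the genes was not tested across samples. H3K9me3 changed by −4.81 (−5.46 to −4.17) in EpiSCs and by −1.39 (−2.02 to −0.77) in MEFs.

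Slc25a14 (X, 45976755 to 46015475, plus strand) encodes a further mitochondrial carrier, related to the uncoupling proteins. H3K9me3 was 1.76 in WT EpiSCs, −1.40 in MD1 EpiSCs, −0.68 in WT MEFs and −1.96 in MD1 MEFs. H3K27me3 was 3.68, 4.21, 2.34 and 1.85. The gene ranked between the 20.3 percentile (H3K9me3 in WT MEFs) and the 66.0 percentile (H3K27me3 in WT MEFs) in all 8 libraries. H3K9me3 changed by −3.16 (−3.77 to −2.54) in EpiSCs and by −1.28 (−1.91 to −0.66) in MEFs, and H3K27me3 by 0.53 (0.26 to 0.81) and −0.49 (−0.77 to −0.22).

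**Figure D3:**
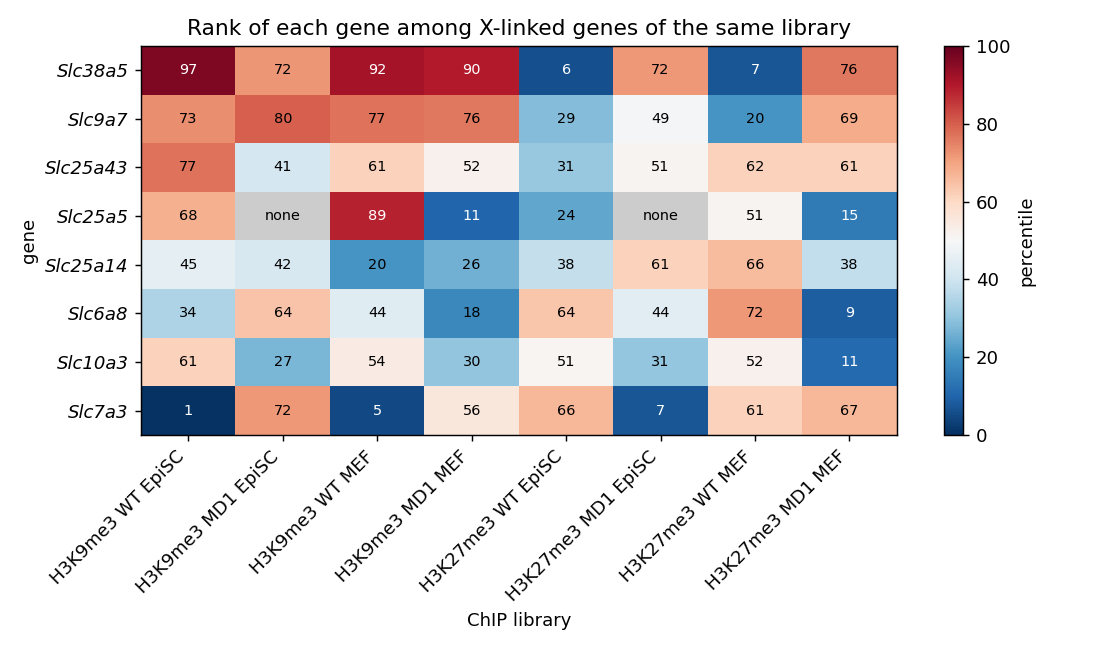
Percentile of each solute carrier gene (rows, in order along the X) among all genes with a value in the same ChIP library (columns), from 0 in blue to 100 in red, with grey where there is no value. Slc38a5 and Slc7a3 stand at opposite ends in WT EpiSCs, at 96.8 and 0.695 for H3K9me3, and Slc6a8, Slc10a3 and Slc25a5 hold the 3 lowest H3K27me3 ranks in MD1 MEFs, between 8.89 and 14.6.

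Promoter sequence was available for 5 of the 8 genes in a RefSeq table of build GRCm38.p6, which gives 300 bases from 250 before to 50 after a start of transcription. The stretches of 4 genes are shown because they pair genes with different H3K27me3 changes in MEFs: Slc38a5 (chrX:8271131-8271430, plus strand) and Slc9a7 (chrX:20291778-20292077, minus strand), where the mark was higher in MD1, Slc25a5 (chrX:36795347-36795646, plus strand), where it was lower, and its neighbour Slc25a43 (chrX:36743382-36743681, plus strand), where it changed little. These coordinates belong to GRCm38.p6 and cannot be set against the mm9 positions above. Capitals mark CG dinucleotides, the sites of DNA methylation in mammals.
Slc38a5: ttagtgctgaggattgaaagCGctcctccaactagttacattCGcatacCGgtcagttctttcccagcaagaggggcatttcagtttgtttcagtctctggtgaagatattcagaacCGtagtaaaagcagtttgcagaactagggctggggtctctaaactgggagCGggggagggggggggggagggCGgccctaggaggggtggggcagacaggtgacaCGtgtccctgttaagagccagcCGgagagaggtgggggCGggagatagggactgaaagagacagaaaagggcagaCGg
Slc9a7: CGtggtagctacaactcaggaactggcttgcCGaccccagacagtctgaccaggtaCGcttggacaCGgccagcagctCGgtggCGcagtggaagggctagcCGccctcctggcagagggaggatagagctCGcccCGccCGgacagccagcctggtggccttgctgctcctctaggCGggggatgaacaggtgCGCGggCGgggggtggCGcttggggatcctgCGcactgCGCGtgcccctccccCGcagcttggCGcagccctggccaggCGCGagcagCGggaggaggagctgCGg
Slc25a5: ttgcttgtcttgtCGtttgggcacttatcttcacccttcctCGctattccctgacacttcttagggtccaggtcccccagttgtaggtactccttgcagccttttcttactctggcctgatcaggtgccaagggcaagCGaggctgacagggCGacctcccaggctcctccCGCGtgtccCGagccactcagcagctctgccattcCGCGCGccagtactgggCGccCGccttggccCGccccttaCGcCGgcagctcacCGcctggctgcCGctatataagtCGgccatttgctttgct
Slc25a43: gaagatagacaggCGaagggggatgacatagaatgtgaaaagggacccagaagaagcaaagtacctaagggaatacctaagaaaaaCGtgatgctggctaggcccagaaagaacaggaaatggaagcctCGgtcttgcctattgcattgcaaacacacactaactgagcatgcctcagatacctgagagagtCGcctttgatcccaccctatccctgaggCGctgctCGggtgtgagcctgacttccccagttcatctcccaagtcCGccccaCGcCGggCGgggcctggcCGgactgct

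The 4 stretches held 10, 24, 18 and 11 CG in this order, beside a median of 7 over 32851 promoters in the table and also over the 1223 on the X. Their ratio of observed to expected CG was 0.48, 0.65, 0.67 and 0.49, beside a median of 0.38. The count of CG did not order the genes by their H3K27me3 change, since Slc9a7 (higher in MD1 MEFs) and Slc25a5 (lower) had the most. Slc25a14, with 3 listed starts, had between 7 and 13 CG. The GC box GGGCGG, which itself holds a CG, was searched on both strands and was found 2, 3, 1 and 2 times in the 4 stretches, and 35.7% of all promoters held it. The letters TATAAA, searched likewise, were in none of the promoters of the 5 members and in 13.6% of all promoters. The deposited values cover whole genes, so no mark was measured at these promoters alone.

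Genes next to the members showed how far a change was shared locally. For each member the nearest gene with all 8 values on either side was taken. In EpiSCs the neighbours of Slc38a5, Ftsj1 and Ssxb10, had H3K27me3 changes of 5.16 and 4.93, close to the 5.41 of Slc38a5 itself. In MEFs the same neighbours differed, with −0.85 at Ftsj1, an RNA methyltransferase gene, and 2.10 at Ssxb10, beside 2.76 at Slc38a5. Chst7 and Rp2h, on either side of Slc9a7, had MEF changes of 1.83 and 1.55, near the 1.63 of Slc9a7.

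At each of the 3 members with lower H3K27me3 in MD1 MEFs, at least 1 neighbour was also at least 2-fold lower. Of all genes taken singly 24.0% were lower, which is not the share of genes with at least 1 such neighbour. Slc25a43 and Slc7a3, which were not lower themselves, also had such a neighbour, C330007P06Rik and Snx12. How often a lower neighbour lies beside other genes was not tested. Slc6a8 changed by −4.14 and Bcap31, 3682 bases away, by −4.95, while Pnck on the other side, 13062 bases away, changed by 0.83. Slc10a3 changed by −3.22 and Fam3a, 11370 bases away, by −3.61, while its other neighbour is the overlapping Slc10a3-ubl4 and no separate measurement. Slc25a5 changed by −2.62 and C330007P06Rik, 49737 bases away, by −3.28, while Slc25a43 on its other side changed by 0.34. At Slc7a3 the neighbours had H3K27me3 changes in EpiSCs of −0.37 (Tex11) and −0.95 (Snx12), both smaller than the −2.46 of Slc7a3, and Snx12 changed by −2.43 in MEFs where Slc7a3 changed by 0.45. H3K9me3 in WT EpiSCs was under input at Tex11 (−0.12) and Snx12 (−0.53), as it was at Slc7a3. It changed there by −0.80 and −0.98, both under 2-fold, where Slc7a3 changed by 1.51. Neighbouring genes thus went with the member at some places and not at others.

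**Figure D4:**
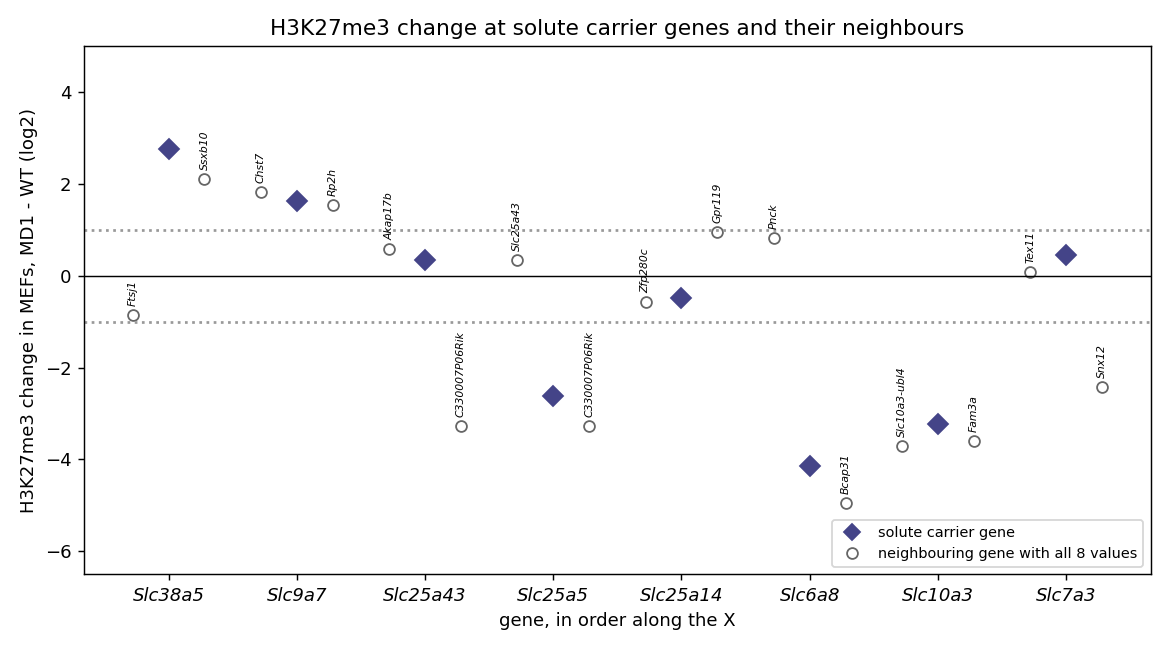
H3K27me3 change in MEFs between MD1 and WT on the log2 scale (vertical axis) for the 8 solute carrier genes in order along the X (horizontal axis), as filled diamonds, with the nearest genes that have all 8 values as open circles on either side and dotted lines at the 2-fold threshold. Slc9a7 and its neighbours lie between 1.55 and 1.83, and Slc6a8 lies at −4.14 between Pnck at 0.83 and Bcap31 at −4.95.

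By Euclidean distance over the 8 log2 values, the gene most like Slc25a43 was Xk (distance 0.44), that most like Slc9a7 was its neighbour Chst7 (0.59), and that most like Slc6a8 was Irak1 (0.74). The nearest to Slc25a14 was Zdhhc9 (0.93), to Slc10a3 the overlapping Slc10a3-ubl4 (0.99), and to Slc25a5, over 6 values, Usp11 (1.20). Slc38a5 and Slc7a3 had no gene as close, with Prkx at 1.59 and Kantr at 1.86. Prkx shared with Slc38a5 a low WT and a high MD1 H3K27me3 value in EpiSCs, −1.40 and 3.31.

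The 6 other rows with a solute carrier symbol also differed among themselves. Slc35a2, which encodes the UDP-galactose transporter of the Golgi, had H3K27me3 of 1.82 in WT EpiSCs, 3.40 in MD1 EpiSCs, 0.55 in WT MEFs and −3.71 in MD1 MEFs, so that it was higher without SmcHD1 in EpiSCs, by 1.58 (0.94 to 2.23), and lower in MEFs, by a change of −4.26 (−5.60 to −2.92). Slc6a14, an amino acid carrier gene with values in MEFs alone, had a change in H3K27me3 of 1.87 (1.34 to 2.40) and in H3K9me3 of 0.042 (−0.81 to 0.90). Slc25a53, a mitochondrial carrier family gene, changed in H3K27me3 in MEFs by −1.70 (−1.95 to −1.46). H3K27me3 in MD1 MEFs was at least 2-fold lower at 3 of these 6 rows (24.0% of all genes), 1 of them the overlapping Slc10a3-ubl4 (−3.71), and higher at 1 (22.3%). H3K9me3 was at least 2-fold lower at 4 of 5 in EpiSCs (82.9%) and at 4 of 6 in MEFs (51.3%). After centring 4 of 5 (63.8%) and 3 of 6 (25.3%) were lower, and 1 was higher in each cell type (5.37% and 7.44%). The H3K9me3 change of Slc35a2 in MEFs was −7.42 (−10.32 to −4.51), on an MD1 ChIP pair of 1.

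A list of 17 X-linked genes of other transport proteins (pumps, channels and translocases) had 16 with values. H3K9me3 was at least 2-fold lower in MD1 at 16 of 16 in EpiSCs, where 82.9% of all genes were, with a median of −3.53, and at 9 of 16 in MEFs, where 51.3% were, with a median of −1.20. After centring these counts were 11 of 16 (63.8% of all genes) and 3 of 16 (25.3%), with 1 higher in MEFs (7.44%). H3K27me3 in MEFs was at least 2-fold lower at 7 of 16 (24.0% of all genes) and higher at 2 (22.3%), with a median of −0.56, beside 0.34 over all genes and −0.079 over the 8 solute carriers. Among the 7 were Atp6ap1 (−5.52) and Atp6ap2 (−3.57), accessory proteins of the vesicular proton pump, and the mitochondrial import genes Timm8a1 (−2.63) and Timm17b (−1.999). The 2 that were higher were the channel genes Kcnd1 (1.88) and Cacna1f (1.51). After centring H3K27me3 in MEFs was lower at 8 of 16 (26.1% of all genes) and higher at 2 (16.0%). In EpiSCs H3K27me3 was lower at 1 (11.3% of all genes) and higher at 2 (22.7%) of the 16. After centring it was lower at 1 (46 of 708 genes) and higher at 5 (31.6%).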

How the data were processed

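The authors deposited log2 enrichment values, 1 per X-linked gene and ChIP library. The tools named in the submitters' processing notes are cutadapt, BWA and SAMtools, and the build is mm9. The sources used here give no versions, counting rule, pseudocount, scaling constant or allele, and the denominator is read here as the input of the same cells. From these values the MD1 minus WT difference, percentiles within a library, neighbours and Euclidean distances were computed (Python 3.11.15, numpy 2.4.6, pandas 2.3.3, matplotlib 3.10.9). Starts were read as counting from 0 and are printed counting from 1.

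A change was called at 2-fold. With 1 library per group no test was run. Whole-number pairs were recovered with 1 constant per library, a largest denominator of 30000 and a relative tolerance of 1e-12; 100% of values matched in each library. They are the smallest pairs, given a common input for both marks, and intervals use a normal approximation on the log scale. Median input pairs per gene were 78 in WT and 85 in MD1 EpiSCs, and 99 in WT and 129.5 in MD1 MEFs, and the median H3K9me3 ChIP pair was lowest in MD1 EpiSCs, at 13.

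Named genes were the 8 members, all other rows with a solute carrier symbol, the nearest genes with all values, the nearest gene by pattern, and called genes of the transport list. Of the other solute carrier rows, 2 are counted but not reported singly here. Members and lists were chosen with earlier results of these data known. Alternatives were centring, a pseudocount of 0.1, a 3-fold threshold and input pairs of at least 20.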

Additional observations from a re-analysis of the deposited data

Results flagged for a closer look

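At Slc25a14 the H3K27me3 change had opposite signs in the 2 cell types, with counting intervals that excluded 0 in both: 0.53 in EpiSCs and −0.49 in MEFs. The MEF change minus the EpiSC change was −1.03. Each change was under 2-fold and rests on 1 library per group, and the difference between the cell types was not tested. Centring moved the EpiSC change to 0.9997 and the MEF change to −0.77, which kept both signs.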

How the results depend on the processing

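Centring on the genes that were not H3K9me3-rich moved all changes by 1.19 (H3K9me3, EpiSCs), 0.99 (H3K9me3, MEFs), 0.47 (H3K27me3, EpiSCs) and −0.27 (H3K27me3, MEFs). With it 5 members in place of 6 were lower in H3K9me3 in EpiSCs, with Slc6a8 lost at −0.72, and over all genes 452 in place of 587. With it also 2 members in place of 7 were lower and 1 in place of 0 higher in H3K9me3 in MEFs, and 3 in place of 1 were higher in H3K27me3 in EpiSCs. Lower calls over all genes went from 98.7% to 77.3% of the 2-fold calls for H3K9me3 in MEFs, from 33.2% to 17.04% for H3K27me3 in EpiSCs and from 51.8% to 62.1% in MEFs. A 3-fold threshold left 4 members lower in H3K9me3 in MEFs, 0 higher in EpiSCs and 1 rich in WT MEFs. Input pairs of at least 20 left out Slc25a5 and Slc10a3 in MEFs, so that 1 member in place of 3 was lower in H3K27me3 there and 1 was rich. Of 30 changes at single members, centring moved 11 beyond their counting interval, and a pseudocount of 0.1 moved none. Centring shifts every gene of a comparison alike, so the 11 are those with narrow intervals. The count therefore follows depth and does not measure how stable a change is. No change of at least 2-fold at a member reversed its sign under centring, the pseudocount or the input minimum. No paired analysis was possible because each group holds 1 library. Depth limits Slc25a5, Slc10a3, Slc6a8 and the H3K9me3 values of Slc7a3 most, where pairs hold few counts.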
